A study of Mus musculus with 12 samples.

Results

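The proteasome is the main proteolytic machine of the cytosol and nucleus, and 47 of the genes that encode it, assemble it or bind to it were followed in cardiac macrophages (Mφ) sorted by FACS as CD14+/CD64+ cells. The genes were chosen by name: all symbols that start with Psma to Psmg and a number, without pseudogenes and without the 3 catalytic subunits of the immunoproteasome, Psmb8, Psmb9 and Psmb10. A minimum of 100 counts over all libraries was part of the rule and removed none. The 47 genes were among 24445 gene symbols counted, and all 47 were among the 14608 genes that passed the filter on low counts. The name rule took in 1 gene that is no part of the proteasome, Psmc3ip, which encodes a partner protein of PSMC3 that acts in meiotic recombination, and which is counted among the 47 below. Without it, 33, 40 and 34 of 46 genes had a log2 fold change above 0 in ECH against Ct, HF against Ct and HF against ECH, with medians of 0.12, 0.27 and 0.18.

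The 20S core particle is a barrel with outer rings of alpha subunits and inner rings of beta subunits, and some of the beta subunits carry the proteolytic sites. The 19S regulatory particle sits on its ends: a ring of ATPases unfolds the substrate, and the non-ATPase subunits bind the ubiquitin chain and remove it. In cells exposed to interferon the catalytic beta subunits are replaced by immunoproteasome subunits and the PA28 activator is made, which serves antigen presentation, a known task of Mφ.

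RNA was sequenced from 12 adult male mice of the strain C57BL6/J, 4 in each of 3 groups. All mice carried an implanted pump. Control mice (Ct) received saline, mice with early concentric hypertrophy (ECH) were infused over 14 days with isoproterenol, which stimulates β-adrenergic receptors (dose 30 mg/kg/day), and mice with heart failure (HF) received the same dose for 28 days. The labels gave neither the age of each mouse nor the infusion time of each control, and the infusion differed in length, so that the time under the pump and the condition cannot be told apart between ECH and HF. The libraries, 1 per mouse and named Ct1 to Ct4, ECH1 to ECH4 and HF1 to HF4, held 88466559 to 111180291 counts. Between 13600 and 15940 genes were detected, fewest in HF1 and in Ct2 (14489). All 10 Mφ markers checked (Cd14, Fcgr1, Adgre1, Csf1r and others) were detected in all 12 libraries, with summed levels of 29287 to 41450 CPM (the count of a gene over the TMM-scaled library size of edgeR, times 1e6). The trailing numbers of the sample labels fall into 2 runs, 1 with Ct1 to Ct4, ECH1 and ECH2 and 1 with ECH3, ECH4 and HF1 to HF4. These are called sets A and B here. The labels do not say that the sets were prepared or sequenced apart, and no Ct library is in the set of the HF libraries. Set and condition can be separated between Ct and HF only through the ECH libraries, if the set is taken to act alike in all groups.

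The proteasome genes were well expressed in sorted cardiac Mφ. Their mean level over the 12 libraries was at least 100 CPM for 22 genes, between 10 and 100 CPM for another 22 and under 10 CPM for 3 (Psma8, Psmb11 and Psmc3ip), and 42 of 47 lay above the median gene. Together they took 0.342% to 0.468% of all counts in Ct, 0.418% to 0.474% in ECH and 0.462% to 0.496% in HF. In CPM, the sum over the 47 genes was 3620, 4342, 4785 and 3276 in Ct1 to Ct4, 4574, 4778, 4093 and 3938 in ECH1 to ECH4, and 5026, 4737, 4913 and 4817 in HF1 to HF4. Ct thus held a library within the HF range (Ct3) as well as the lowest of all (Ct4), and the HF libraries lay closest together (4006 ± 683 in Ct, 4346 ± 396 in ECH and 4873 ± 125 in HF, SD, n = 4). In bulk RNA of sorted cells, a larger share of cells with high levels and more RNA per cell cannot be told apart.

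**Figure D1:**
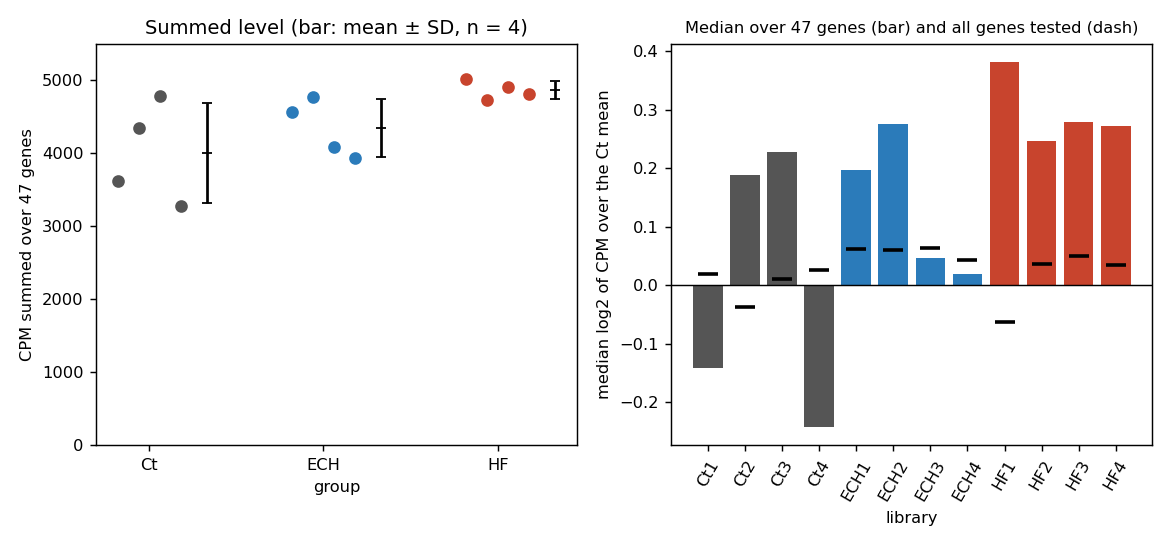
Left, CPM summed over the 47 genes in each library (points, replicates 1 to 4 from left) with the mean ± SD of each group (n = 4). Right, the median over the 47 genes of the log2 ratio of CPM to the mean of Ct (bars) beside the median over all 14608 genes tested (dashes). The 4 HF libraries lie between 4737 and 5026 CPM, while Ct spans 3276 to 4785 CPM.

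Levels were compared between genes as CPM per kb of the principal transcript, averaged over the 12 libraries. In the alpha ring they ran from 1.92 CPM per kb for Psma8, the form of the testis, to 197 for Psma7, with a median of 86.2 over 8 genes. In the beta ring they ran from 0.306 for Psmb11, the form of the thymic cortex, to 196 for Psmb2, a structural subunit, with a median of 86.2. The median was 75.6 over the 6 ATPases (34.1 for Psmc6 to 87.5 for Psmc3) and 60.1 over the 11 non-ATPase subunits (23.7 for Psmd11 to 96.7 for Psmd8). The lowest and highest of the chaperones of the 19S base were Psmd5 (9.73) and Psmd10 (20.4), and those of the chaperones of the core were Psmg1 (13.2) and Psmg4 (35.2). Among the activators and the inhibitor, Psme4, the PA200 activator, was lowest (4.56) and Psme1, the PA28 alpha subunit, was highest (133). Levels thus differed among subunits of the same ring, and the assembly factors lay below most subunits. Psmc3ip stood at 1.74 CPM per kb. Psme2b is a near copy of Psme2, and reads may have been split between them. Psmb7 shares 34.9% of its exon bases with Nek6 on the opposite strand, and whether the counting used strand was not stated in the sources used here.

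**Figure D2:**
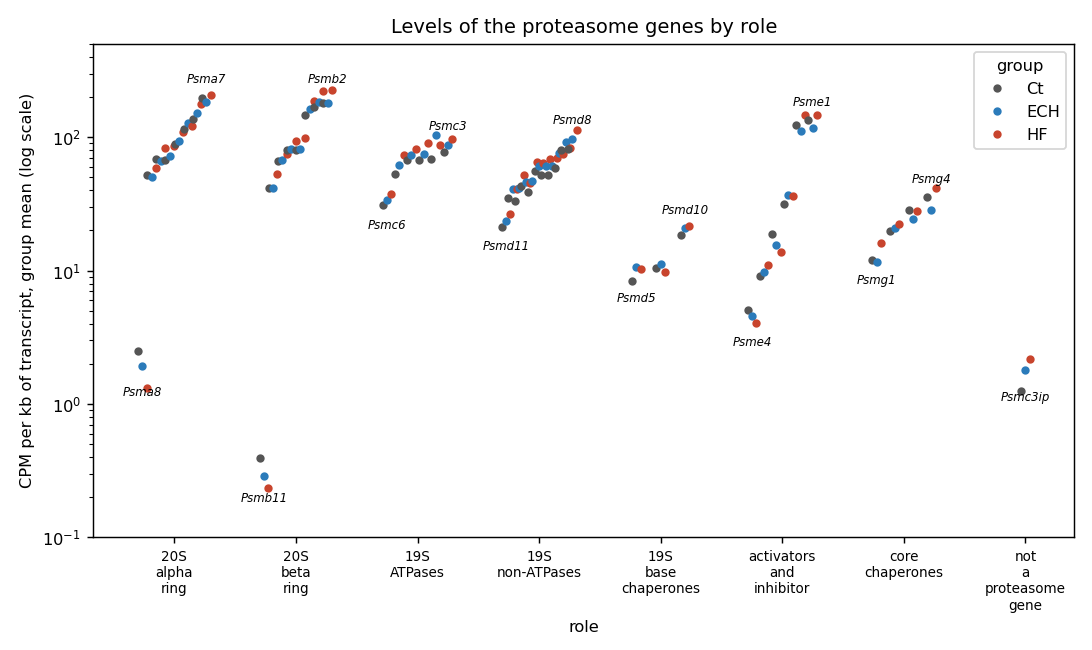
Mean CPM per kb of transcript of each gene in Ct, ECH and HF (points, log scale), grouped by role, with the lowest and the highest gene of each role named. Core and regulatory subunits lie mostly above the chaperones, and Psmb11, Psmc3ip and Psma8 are the lowest.

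The catalytic subunits are given in full. Psmb5, which carries the chymotrypsin-like site, was at 68.1, 79.1, 92.9 and 47.8 CPM in Ct, 86.2, 75.9, 65.1 and 68.6 in ECH and 97.0, 83.0, 91.1 and 82.7 in HF. Psmb6, which carries the caspase-like site, was at 115, 179, 146 and 95.6 CPM in Ct, 162, 164, 137 and 125 in ECH and 180, 172, 181 and 179 in HF. Psmb7, which carries the trypsin-like site, was at 52.3, 39.0, 60.3 and 40.8 CPM in Ct, 52.9, 58.6, 44.6 and 38.3 in ECH and 66.6, 56.4, 56.6 and 64.8 in HF. For all 3 genes the 4 HF libraries lay close together, while Ct spread over a range that reached into that of HF. The immunoproteasome counterparts were read in the same cells: per kb, Psmb8 stood at 1.75 ± 0.40 times Psmb5 in Ct, 1.66 ± 0.41 times in ECH and 1.59 ± 0.16 times in HF (SD, n = 4). Psmb9 stood at 0.297 ± 0.074, 0.241 ± 0.041 and 0.213 ± 0.039 times Psmb6, and Psmb10 at 1.70 ± 0.45, 1.55 ± 0.15 and 1.41 ± 0.14 times Psmb7. The ratios of the groups overlapped for each pair and were not tested.

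RefSeq promoter sequences (GRCm38.p6, 250 bases before to 50 bases after each start) were found for 39 of the 47 genes. They are shown for the 5 genes with the lowest p values in the comparisons with Ct that also had all libraries of a treated group above Ct, together with that of Psmb5, for which none of the 3 comparisons over all 12 libraries had a p under 0.05. Capitals mark the ETS core (CGGAAG, on either strand) and the Nrf-type element (TGACNNNGC, on either strand).
Psmc1, chr12:100109952-100110251, plus strand: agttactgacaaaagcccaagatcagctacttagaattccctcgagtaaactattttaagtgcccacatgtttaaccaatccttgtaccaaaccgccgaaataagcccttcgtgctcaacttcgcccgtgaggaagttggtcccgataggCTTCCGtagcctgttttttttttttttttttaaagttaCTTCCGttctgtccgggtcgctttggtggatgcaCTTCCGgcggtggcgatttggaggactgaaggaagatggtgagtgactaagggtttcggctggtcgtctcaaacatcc
Psmd8, chr7:29180624-29180923, minus strand: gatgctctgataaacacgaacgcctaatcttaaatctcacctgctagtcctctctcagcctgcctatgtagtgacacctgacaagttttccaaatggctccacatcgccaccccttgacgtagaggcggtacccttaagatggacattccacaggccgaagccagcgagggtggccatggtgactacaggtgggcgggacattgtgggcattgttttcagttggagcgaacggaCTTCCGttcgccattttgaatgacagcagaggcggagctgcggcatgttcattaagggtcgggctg
Psmc2, chr5:21785025-21785324, plus strand: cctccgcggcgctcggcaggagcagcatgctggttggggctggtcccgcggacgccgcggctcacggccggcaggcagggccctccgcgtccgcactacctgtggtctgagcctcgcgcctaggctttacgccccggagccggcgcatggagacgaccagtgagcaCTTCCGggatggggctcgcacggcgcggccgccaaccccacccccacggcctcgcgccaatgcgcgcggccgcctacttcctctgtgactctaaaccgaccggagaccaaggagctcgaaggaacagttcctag
Psmd12, chr11:107479278-107479577, plus strand: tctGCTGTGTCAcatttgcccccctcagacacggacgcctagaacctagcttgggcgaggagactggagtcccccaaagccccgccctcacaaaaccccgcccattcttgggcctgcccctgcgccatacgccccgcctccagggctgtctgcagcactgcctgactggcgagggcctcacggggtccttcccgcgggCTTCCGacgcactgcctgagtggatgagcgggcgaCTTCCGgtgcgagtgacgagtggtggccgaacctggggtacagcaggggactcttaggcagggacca
Psmd14, chr2:61711444-61711743, plus strand: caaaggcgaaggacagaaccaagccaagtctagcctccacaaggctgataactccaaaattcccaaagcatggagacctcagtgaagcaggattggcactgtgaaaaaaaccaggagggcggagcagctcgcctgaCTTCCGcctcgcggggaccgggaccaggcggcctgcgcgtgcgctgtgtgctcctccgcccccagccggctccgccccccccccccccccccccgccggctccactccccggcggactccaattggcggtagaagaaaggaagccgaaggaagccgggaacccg
Psmb5, chr14:54617946-54618245, minus strand: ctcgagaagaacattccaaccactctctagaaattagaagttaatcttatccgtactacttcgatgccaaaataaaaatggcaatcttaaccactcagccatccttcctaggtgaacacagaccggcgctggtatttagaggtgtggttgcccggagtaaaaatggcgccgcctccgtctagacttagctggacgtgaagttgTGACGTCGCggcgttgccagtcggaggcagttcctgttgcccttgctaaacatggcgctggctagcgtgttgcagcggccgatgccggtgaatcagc

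The ETS core stood in a promoter of 23 of the 39 genes (59.0%), against 32.5% of 10983 tested genes and 18.8% of all 27025 genes with a promoter in the table. The Nrf-type element stood in 6 of 39 (15.4%; Psmb5, Psmb6, Psmc6, Psmd9, Psmd12 and Psme4), against 17.2% and 14.0%. The GC box (GGGCGG) stood in 56.4% against 65.0% and 38.2%, and the CCAAT box (CCAAT) in 35.9% against 42.5% and 41.1%, both searched on either strand. The Psmc1 promoter held 3 ETS cores, that of Psmd12 held 2 and an Nrf-type element, and that of Psmb5 held none. The promoter shown for Psmc2 is the first of 2 in the table. No ETS core overlapped an Nrf-type element in the promoters shown. Matches are a description of letters in this window.

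The genes were then compared between groups, with each difference given as a log2 fold change of the fitted group means ± SE. ECH and HF share the control libraries, so that their differences from Ct are given side by side and not as separate evidence. None of the 47 genes passed an FDR under 0.05 in any of the 3 comparisons by the quasi-likelihood test of edgeR. Most group means were nevertheless ordered in the same way: the mean was lowest in Ct, intermediate in ECH and highest in HF for 26 of 47 genes (55.3%), against 19.6% of all genes tested, and the reverse order was found for 4 genes (8.51%), against 20.5%.

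**Figure D3:**
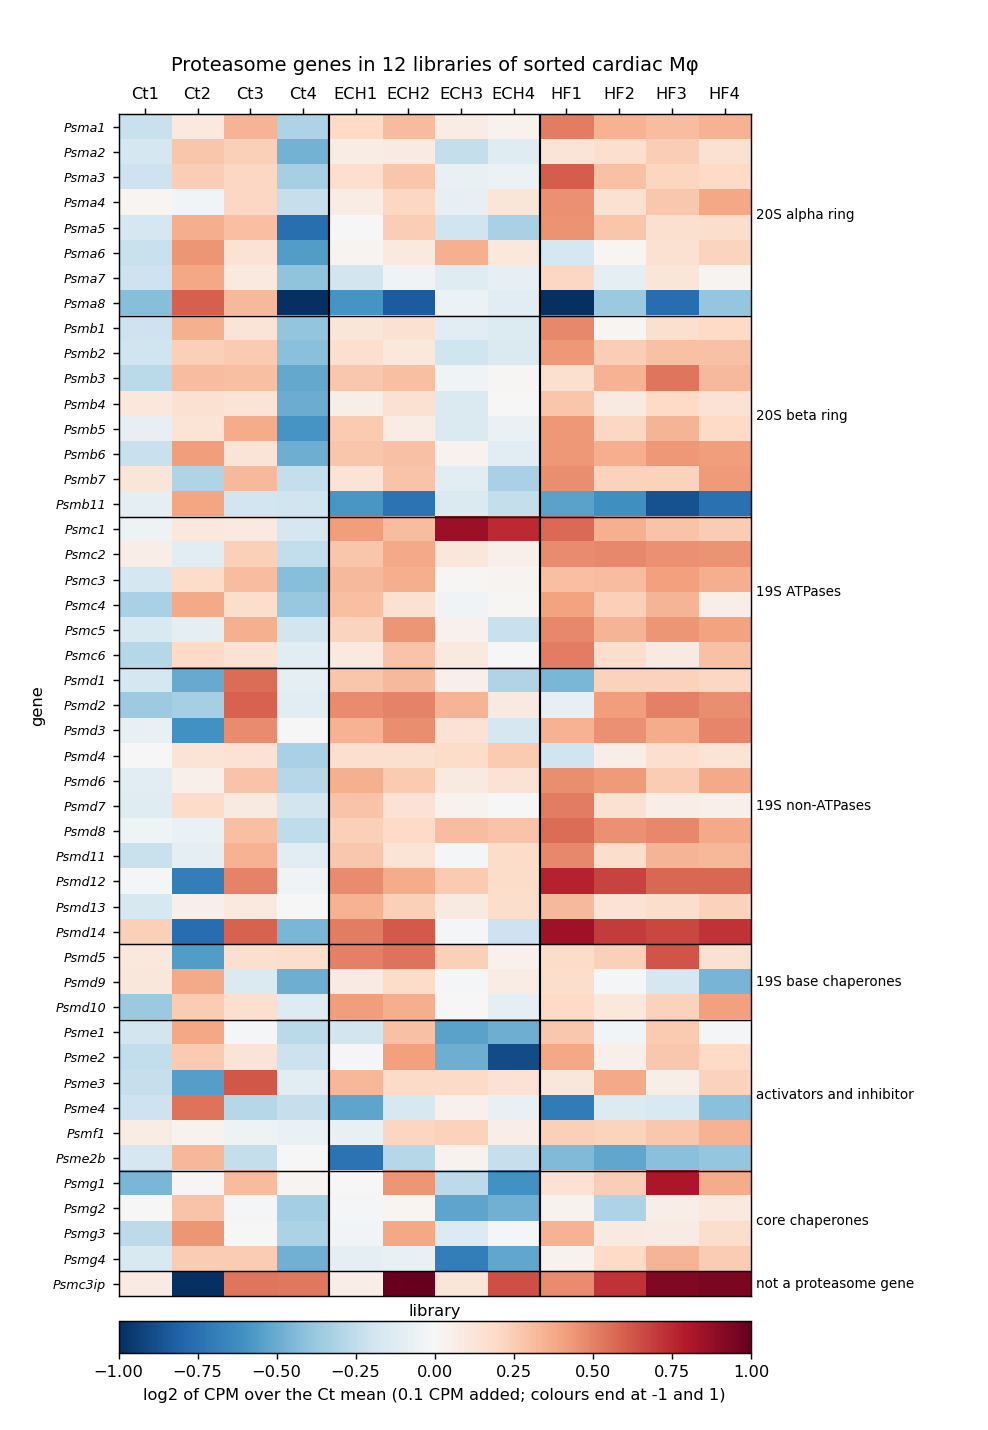
Log2 ratio of CPM to the mean of Ct for each of the 47 genes (rows, by role) in each of the 12 libraries (columns), with 0.1 CPM added and colours ending at -1 and 1. The HF columns are mostly red, Ct4 and Ct1 are mostly blue, and ECH3 and ECH4 are paler than ECH1 and ECH2.

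Between ECH and Ct, proteasome genes as a group differed little, and the clearest single difference was in Psmc1, an ATPase of the 19S base. The median log2 fold change over the 47 genes was 0.12 (all genes tested, 0.01), and 34 of 47 were above 0 (51.1% of all genes tested). No member was called, against 0.472% of all genes. A single member, Psmc1, had an unadjusted p under 0.05 and was higher in ECH, against 6.03% of all genes higher, and none was lower, against 5.89% lower. By role, all 6 ATPases (median 0.17), all 11 non-ATPase subunits (median 0.22) and all 3 base chaperones (median 0.19) had a log2 fold change above 0. In the core it was above 0 for 4 of 8 alpha genes (median 0.02) and 6 of 8 beta genes (median 0.02), and it was above 0 for 2 of 6 activators and inhibitor and for 1 of 4 core chaperones.

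Psmc1 (chr12:100110154-100123405) was at 105, 116, 116 and 96.4 CPM in Ct, 145, 135, 196 and 182 in ECH and 161, 139, 132 and 129 in HF. All ECH libraries lay above all Ct libraries, and ECH3 and ECH4 lay above every other library. The difference between ECH and Ct was 0.60 ± 0.14 on the log2 scale, or 1.51-fold (edgeR FDR = 0.0950). Exact permutation tests of the 22 named pairs of a gene and a comparison reached at best p = 0.0286, as for Psmc1 here (0.0629 adjusted over the 22). That is the smallest p that 4 against 4 libraries allow and the value of any gene whose groups do not overlap, and most of these genes were picked by their edgeR p. DESeq2 called Psmc1 (FDR = 0.00643), as the 1 member among 3.29% of all genes called, and the likelihood ratio test of edgeR called it as well (FDR = 0.0135), against 2.51% of all genes.

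The next members by p did not pass the test. Psmd8, a subunit of the 19S lid, differed by 0.26 ± 0.12 (edgeR FDR = 0.439), and Psmd13, a further lid subunit, by 0.22 ± 0.11 (FDR = 0.467). Psmd5, a chaperone of the base, differed by 0.35 ± 0.19 (FDR = 0.505), and Psmd2, the large scaffold subunit of the base, by 0.36 ± 0.21 (FDR = 0.543). Psmd2 was at 136, 139, 263 and 162 CPM in Ct and 243, 248, 221 and 187 in ECH, so that Ct3 alone exceeded the ECH libraries. Without Ct3 the difference of Psmd2 was 0.62, and without Ct2 that of Psmd5 was 0.20. All ECH libraries lay above all Ct libraries for 2 genes, Psmc1 and Psmd4 (4.33% of all genes), and below for none (3.64% of all genes). Psmd4, a ubiquitin receptor named after its values were seen, was at 119 to 129 CPM in ECH and 85.5 to 118 in Ct.

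Single libraries bore on this comparison. Without Ct4 the median was 0.01, and without Ct3 it was 0.18. Without Ct3, 10 members had a p under 0.05 (15.1% of all genes in that fit) and 9 had all ECH libraries above Ct (8.22%). Within set A, ECH1 and ECH2 against Ct, the median was 0.21, no member had a p under 0.05 (2.4% of genes were higher at that p), and Psmc1 differed by 0.36 ± 0.17 (edgeR FDR = 0.947). No value within set B exists for this comparison.

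Between HF and Ct most proteasome genes had a higher mean in HF, led by subunits of the 19S particle. The median log2 fold change over the 47 genes was 0.27, or 1.21-fold (all genes tested, -0.01), and 41 of 47 were above 0 (48.8% of all genes tested). No member was called, against 0.513% of all genes. An unadjusted p under 0.05 and a higher level were found for 13 of 47 (27.7%), against 7.35% of all genes, and none was lower at that p, against 8.72%. By role these were 4 of 6 ATPases, 5 of 11 non-ATPase subunits, 2 of 8 alpha genes, 1 of 8 beta genes, 1 of 6 activators and inhibitor and none of the 7 chaperones. DESeq2 called 3 members, Psmd8, Psmc2 and Psmd12 (4.88% of all genes), and the likelihood ratio test called 2, Psmd8 and Psmc2 (3.33% of all genes).

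**Figure D4:**
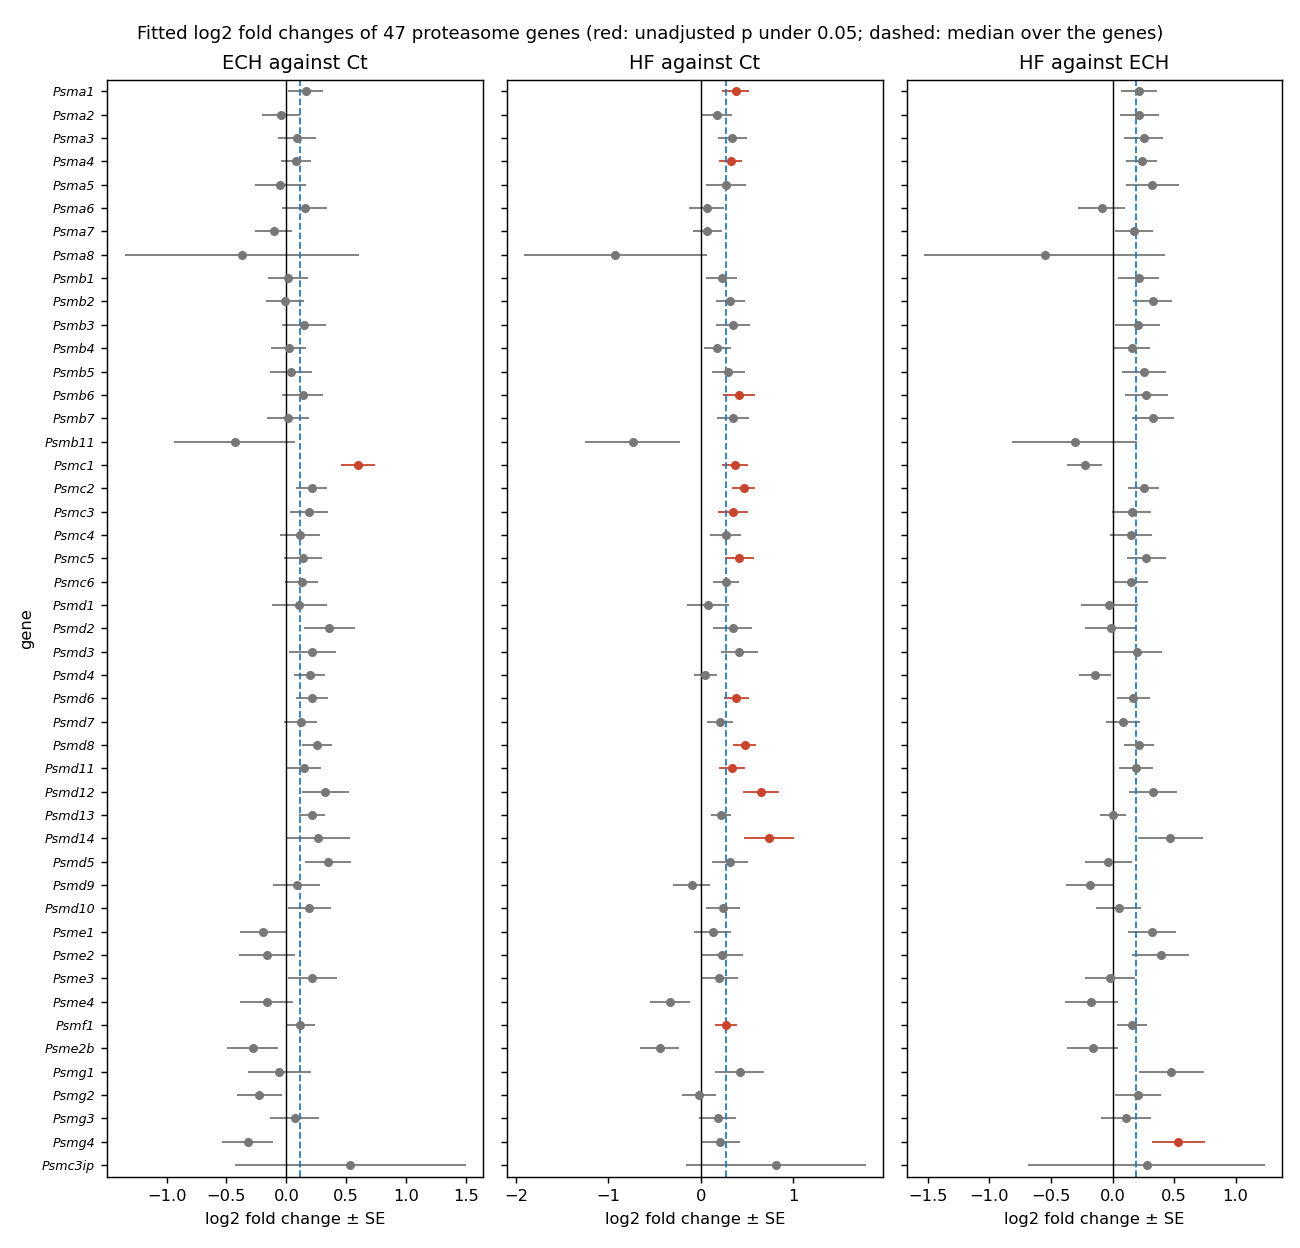
Fitted log2 fold change ± SE of each of the 47 genes in the 3 comparisons, by role from top to bottom. Genes with an unadjusted p under 0.05 are red (1, 13 and 1), and the dashed line is the median over the genes (0.12, 0.27 and 0.19).

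Among the genes with a p under 0.05, the largest differences were those of Psmd14 and Psmd12, both of the lid of the 19S particle. Psmd14 (chr2:61711694-61800376), the metalloprotease that cuts ubiquitin chains off the substrate, was at 70.8, 35.4, 90.3 and 43.7 CPM in Ct, 85.7, 91.8, 59.5 and 51.9 in ECH and 108, 97.5, 95.6 and 98.9 in HF. All HF libraries lay above all others, and Ct2 and Ct4 lay lowest. HF and Ct differed by 0.74 ± 0.27, or 1.67-fold (edgeR FDR = 0.216). Psmd12 (chr11:107479484-107504362), a scaffold subunit of the lid, was at 63.1, 39.3, 90.0 and 62.0 CPM in Ct, 88.2, 82.2, 76.2 and 72.1 in ECH and 109, 102, 94.5 and 94.7 in HF. Again each HF library exceeded every Ct and ECH library, with a difference from Ct of 0.65 ± 0.19 (edgeR FDR = 0.151).

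Psmd8 (chr7:29174188-29180701), also of the lid, was at 121, 119, 154 and 104 CPM in Ct, 147, 143, 154 and 152 in ECH and 184, 172, 174 and 162 in HF. The 3 groups lay in steps, with Ct3 within the ECH range, and HF differed from Ct by 0.47 ± 0.12, or 1.39-fold (edgeR FDR = 0.116), the lowest of all members. Psmd6 differed by 0.39 ± 0.13 (edgeR FDR = 0.202) and Psmd11 by 0.34 ± 0.14 (FDR = 0.271), both lid subunits whose lowest HF library lay below Ct3.

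Among the ATPases, Psmc2 (chr5:21785283-21803787) was at 99.8, 88.3, 112 and 80.3 CPM in Ct, 115, 124, 103 and 98.7 in ECH and 132, 133, 131 and 130 in HF. The HF libraries lay close together and above all others, and the difference from Ct was 0.46 ± 0.13 (edgeR FDR = 0.126). Psmc5 differed by 0.42 ± 0.16 (FDR = 0.235), Psmc1 by 0.37 ± 0.14 (FDR = 0.236) and Psmc3 by 0.35 ± 0.16 (FDR = 0.304). Psmc1 stood apart from the other ATPases in that its mean was higher in ECH (164 ± 29 CPM, SD, n = 4) than in HF (140 ± 14).

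In the core particle, Psma1 differed by 0.38 ± 0.15 (edgeR FDR = 0.239), Psma4 by 0.32 ± 0.12 (FDR = 0.243) and the catalytic Psmb6 by 0.41 ± 0.17 (FDR = 0.274). The other catalytic genes gave 0.30 ± 0.18 for Psmb5 and 0.34 ± 0.17 for Psmb7 (FDR = 0.441 and 0.349). Psmf1, which encodes the inhibitor PI31, was at 33.1 to 36.4 CPM in Ct and 40.4 to 43.9 in HF and differed by 0.27 ± 0.12 (FDR = 0.298). The lowest values of the comparison were those of the tissue-restricted Psma8 (-0.92 ± 0.99) and Psmb11 (-0.74 ± 0.51), of the Psme2 near copy Psme2b (-0.44 ± 0.21) and of Psme4 (-0.34 ± 0.22), none with a p under 0.05. Psma8 had a count of 0 in HF1, which allows a level of up to 0.0287 CPM, against 2.45 to 3.25 CPM in the other HF libraries. Psmc3ip, not a proteasome gene, was at 0 in Ct2 and differed by 0.81 ± 0.97.

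All HF libraries lay above all Ct libraries for 7 genes (14.9%; 4.59% of all genes), Psmc1, Psmc2, Psmd8, Psmd12, Psmd13, Psmd14 and Psmf1, and below for 2 (4.26%; 4.45% of all genes), Psmb11 and Psme2b. Psmd13, Psmb11 and Psme2b are named here after their values were seen.

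**Figure D5:**
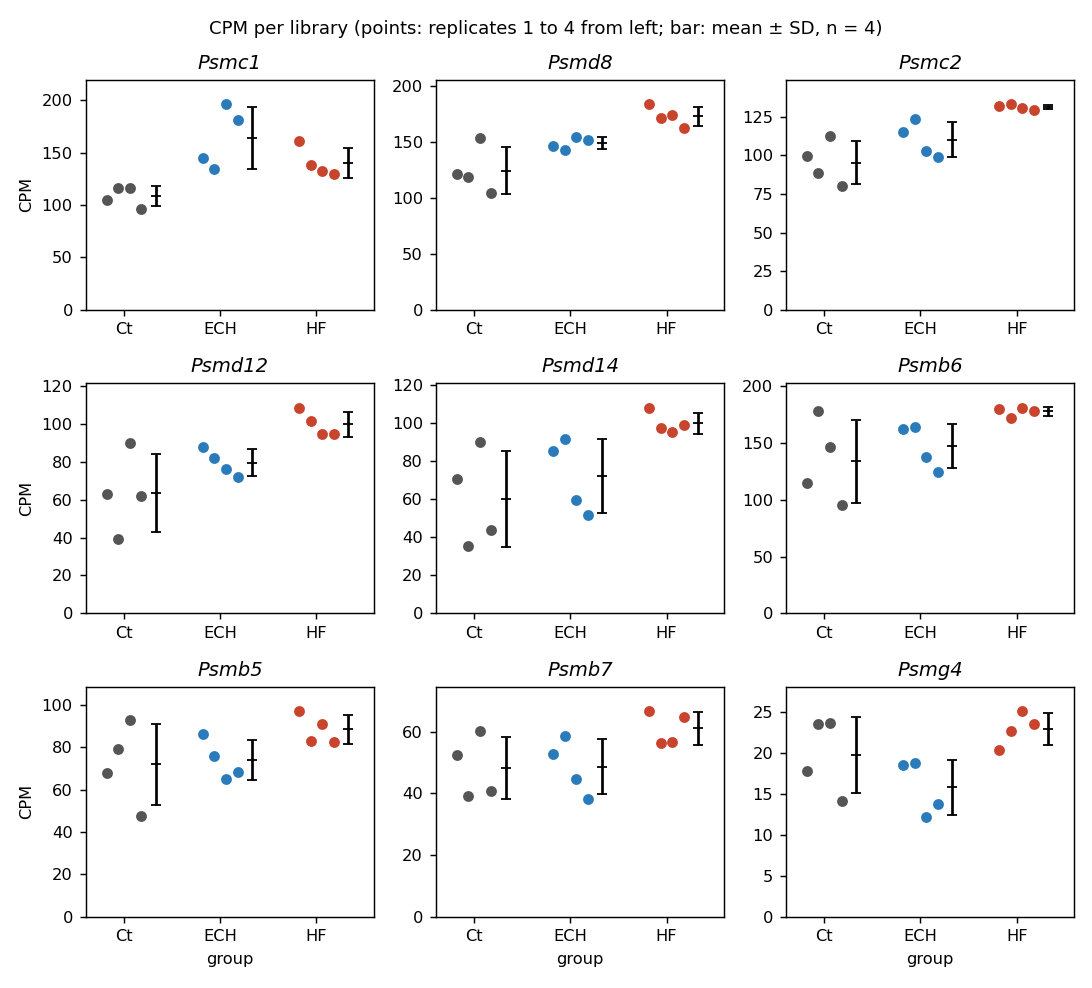
CPM of 9 genes in each library (points, replicates 1 to 4 from left) with the mean ± SD of each group (n = 4). In Psmd8, Psmc2, Psmd12 and Psmd14 the 4 HF libraries lie above all Ct and ECH libraries, whereas Psmc1 is highest in ECH3 and ECH4.

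The spread in Ct weighed on this comparison. Of the 47 genes, 44 had a smaller SD of log2 CPM in HF than in Ct (65.8% of all genes tested), with a median SD of 0.13 in HF, 0.18 in ECH and 0.33 in Ct (all genes tested: 0.32, 0.31 and 0.47). Ct4 was the lowest Ct library for 30 of the 47 genes, and Ct2 was the highest for 23 and Ct3 for 22. Without Ct3, edgeR called Psmd8 (0.59 ± 0.11, FDR = 0.0273) and Psmd12 (0.87 ± 0.17, FDR = 0.0325), against 1.08% of all genes in that fit. There 21 members had a p under 0.05 (20% of all genes) and 20 lay above Ct in every HF library (9.23%). Without Ct4, Ct1 or HF1 no member was called, against 0.167%, 0.107% and 0.24% of all genes. The p count was then 4, 7 and 7, against 14.7%, 13.6% and 14.6% of all genes, and without Ct2 and HF1 together it was 9, against 15.4%. With the set as a covariate the median was 0.51, and 19 members had a p under 0.05 (15.1% of all genes), of which Psme2b was lower (-0.85). In that fit no member was called, against 1.51% of all genes, and Psmc1 turned to -0.065.

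B cell markers were higher in all Ct libraries than in any ECH or HF library, whereas the sums of the other lists overlapped between groups. The 5 B cell markers found summed to 96.6 to 446 CPM in Ct, 34.3 to 79.8 in ECH and 50.1 to 74.6 in HF, and the 7 neutrophil markers to 200 to 1429, 69.2 to 392 and 63.2 to 1062. The 6 T and NK cell markers summed to 20.7 to 84.3, 6.20 to 30.1 and 16.6 to 34.3 CPM. The 10 cardiomyocyte markers summed to 101 to 291, 94.1 to 184 and 70.9 to 122, the 7 fibroblast markers to 29.3 to 192, 90.2 to 468 and 81.1 to 248, and the 8 endothelial markers to 38.2 to 74.0, 40.2 to 109 and 29.7 to 50.2. No marker of these lists was at 0 in all libraries. The 10 Mφ markers summed to 29287 to 32484 CPM in Ct and 32107 to 40948 in HF, and to 41450 and 37757 in ECH1 and ECH2 against 31202 and 30475 in ECH3 and ECH4. HF1 to HF3, ECH1 and ECH2 lay above all other libraries, while HF4 lay within the range of Ct. Lyz2 was the most abundant of the 10, so that the sum need not show what each marker did. The part of these marker levels in the proteasome values was not tested.

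Between HF and ECH the median log2 fold change over the 47 genes was 0.19 (all genes tested, -0.02), and 35 of 47 were above 0 (48% of all genes tested). No member and no other gene (0%) was called. DESeq2 and the likelihood ratio test called none of the members, against 0.479% and 0.424% of all genes. A single member, Psmg4, had an unadjusted p under 0.05 and was higher in HF, against 2.81% of all genes higher, and none was lower, against 5.17%. Psmg4, which with Psmg3 forms a chaperone of the alpha ring, was at 18.6, 18.8, 12.2 and 13.8 CPM in ECH and 20.3, 22.8, 25.1 and 23.6 in HF, and at 14.2 to 23.7 in Ct. HF exceeded ECH in all libraries, by 0.54 ± 0.21 (edgeR FDR = 0.576), while Ct spanned much of both ranges.

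The next genes by p were Psmb2 (0.33 ± 0.16, edgeR FDR = 0.637), Psmc2 (0.25 ± 0.13, FDR = 0.641), Psma4 (0.24 ± 0.12, FDR = 0.670) and Psmb7 (0.33 ± 0.17, FDR = 0.670). All 4 core chaperones were above 0 (median 0.34), as were 7 of 8 beta genes (0.24), 6 of 8 alpha genes (0.22), 5 of 6 ATPases (0.15), 8 of 11 non-ATPase subunits (0.17), 3 of 6 activators and inhibitor (0.07) and 1 of 3 base chaperones (-0.03). Psmc1 was the ATPase below 0 (-0.23 ± 0.14). All HF libraries lay above all ECH libraries for 8 genes (17%; 3.36% of all genes), Psma2, Psmb2, Psmb6, Psmc2, Psmd8, Psmd12, Psmd14 and Psmg4, and below for none (3.56% of all genes). Without ECH2 there were 19 such genes (6.19% of all genes in that fit) and 8 with a p under 0.05 (10.1%), and without HF2 there were 14 genes above (5.77%). No member had a p under 0.05 without ECH3, ECH4 or HF3, against 3.89%, 4.27% and 6.57% of all genes.

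Much of the ECH spread ran along the label sets. ECH3 and ECH4 also share a code in their sample titles, which ECH1 and ECH2 do not carry. Within ECH the set and this code cannot be told apart. Ct1 and Ct2, Ct3 and Ct4, and HF1 and HF2 share such codes as well, and the titles do not say what they stand for. ECH1 and ECH2 both exceeded ECH3 and ECH4 for 32 of 47 genes (68.1%; 26.6% of all genes), with a median log2 difference of 0.24, and lay below them for 8 (17%; 27.8% of all genes), Psma6, Psma8, Psmb11, Psmc1, Psmd4, Psmd8, Psme2b and Psme4. Within set B, HF was compared with ECH3 and ECH4 alone. The median there was 0.29, edgeR called 8 members, all higher in HF (17%; 3.64% of genes called and higher), and 23 were higher at a p under 0.05 (48.9%; 11.7% of genes).

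The 8 genes called within set B were of several roles. Psme2, the PA28 beta subunit, was at 85.3 and 64.3 CPM in ECH3 and ECH4 and 156, 123, 144 and 137 in HF (0.91 ± 0.16, edgeR FDR = 0.0190), and Psme1, its partner, differed by 0.64 ± 0.13 (FDR = 0.0337). Psmd14 differed by 0.85 ± 0.12 (FDR = 0.0104), Psmc5 by 0.50 ± 0.12 (FDR = 0.0471) and Psmg4 by 0.82 ± 0.18 (FDR = 0.0451). In the core, Psmb2 differed by 0.49 ± 0.10 (FDR = 0.0337), Psmb6 by 0.44 ± 0.10 (FDR = 0.0406) and Psma5 by 0.54 ± 0.12 (FDR = 0.0490). Psmc1 went the other way (-0.43 ± 0.12, FDR = 0.0834). With the set as a covariate over all 12 libraries only Psme2 was called in this comparison (0.90, FDR = 0.0323; 2.97% of all genes), and 11 members had a p under 0.05 (16.2% of all genes), among them Psmc1, which was lower (-0.43). Outside set B, Psme2 was at 119 and 158 CPM in ECH1 and ECH2, just below the lowest and above the highest HF library.

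Genes of the same pathway outside the name rule were taken from lists. None of them was called in any of the 3 comparisons over all 12 libraries without a set term. The immunoproteasome genes Psmb8, Psmb9 and Psmb10 gave medians of -0.07, 0.10 and 0.17 in ECH against Ct, HF against Ct and HF against ECH, with no p under 0.05. Their lowest p values were those of Psmb8 (0.22 ± 0.18, HF against Ct), Psmb10 (0.17 ± 0.20, HF against ECH) and Psmb9 (-0.12 ± 0.25, ECH against Ct). With the set as a covariate these were 0.90, 0.53 and 0.13, with no call, and Psmb10 was at 0.34 without ECH2, 0.087 without ECH3, 0.040 without ECH4 and 0.11 without HF1. Of 4 further subunits and assembly factors, 0, 1 and 1 were higher at a p under 0.05 in the 3 comparisons, against 6.03%, 7.35% and 2.81% of all genes tested. Adrm1, a ubiquitin receptor of the 19S base, was at 101 to 129 CPM in HF and 79.4 to 101 in Ct (0.30 ± 0.12, edgeR FDR = 0.264). Pomp, the maturation factor of the core, was at 152 to 167 CPM in HF and 92.6 to 149 in ECH (0.40 ± 0.18, FDR = 0.605). It was called within set B (0.75, edgeR FDR = 0.00934) and with the set as a covariate over all 12 libraries (0.74, FDR = 0.0286). Shfm1, a small lid subunit, differed by -0.31 ± 0.20 between ECH and Ct, and by -0.055 without Ct2, which was at 349 CPM against 163 to 226 in the other Ct libraries.

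Of 12 regulators and proteasome-bound enzymes, 3 were higher in ECH than in Ct at a p under 0.05 (6.03% of all genes tested) and 2 were higher in HF than in Ct (7.35%), with none lower in either. Between HF and ECH 1 was higher in HF (Usp14; 2.81% of all genes tested) and 1 was lower (Ddi2; 5.17%). Uchl5, a deubiquitinase of the 19S particle, was at 46.9 to 56.4 CPM in ECH, 46.2 to 56.6 in HF and 32.9 to 48.4 in Ct (0.46 ± 0.15 for ECH, edgeR FDR = 0.226). Usp14, a further such deubiquitinase, was at 89.2 to 108 CPM in HF and 59.2 to 88.2 in Ct (0.39 ± 0.14, FDR = 0.210). Ddi2, the protease that activates the transcription factor Nfe2l1, was at 26.8, 33.05, 65.3 and 57.2 CPM in ECH and 16.1, 25.4, 19.5 and 34 in HF (-0.94 ± 0.33, FDR = 0.564), with ECH3 and ECH4 high and ECH1 and ECH2 near the range of the other groups. Ddi2 was called within set B (-1.36, edgeR FDR = 0.0337) and with the set as a covariate over all 12 libraries (-1.37, FDR = 0.0428). Of 13 delivery factors and ubiquitin genes none was higher at that p in any comparison. Rps27a, which encodes ubiquitin fused to a ribosomal protein, differed by -0.62 ± 0.30 between ECH and Ct (edgeR FDR = 0.437), and Ct2 lay far above the rest (428 CPM against 122 to 177 in the other Ct libraries). Without Ct2 the difference was -0.081.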

How the data were processed

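CD14+/CD64+ Mφ were sorted from hearts by FACS, cDNA was made with SMART-Seq v4, and libraries were sequenced on an Illumina NextSeq instrument. The authors trimmed reads with Trimmomatic, aligned them to mm10 with TopHat2 and counted them per gene with featureCounts, and the counts were used as deposited. Tool versions, the annotation and the strand setting were not given in the sources used here. No other column of per-sample values was present.

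Genes passing filterByExpr of edgeR (14608) were scaled by TMM and fitted in 1 quasi-likelihood model of all 12 libraries (edgeR 4.0.16, R 4.3.3), with Benjamini-Hochberg adjustment over all of them, with calls made below an FDR of 0.05. The common biological coefficient of variation was 60.8%. CPM used the TMM-scaled library sizes, and CPM per kb divided them by the length of the principal transcript (GENCODE M21, GRCm38). Exact permutation tests of single genes were two-sided. A count of 0 was read as a limit of 3 counts, and such limits cover counting error only. The script was tested on simulated data. Alternatives were DESeq2 1.42.0, the likelihood ratio test, other scaling and filters, the label set, a replicate block and the loss of each library.

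The proteasome genes and the lists were chosen with earlier results of these data known. Named were genes with an unadjusted p under 0.05 (at most 12 per comparison, and at least the 5 with the lowest p), Psmb5, Psmb6, Psmb7, Psmd14 and Psmc1, the highest and the lowest gene of each role, and the 3 genes with the lowest p of each outside list, of which some results of the delivery and ubiquitin list are not reported here. Psmc3, the 13th gene in HF against Ct, was added after its values were seen. No libraries were counted as 1 sample, since any pair within a group differed by a chi-square per degree of freedom of at least 139.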

Additional observations from a re-analysis of the deposited data

Results flagged for a closer look

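In 8 of 141 sets of 4 libraries (47 genes in 3 groups), 1 library stood far from the others by Dixon's test, a number near the 1 in 20 that chance gives. Ct2 was high for Psmb11 (2.22 CPM against 1.44 to 1.56) and for Psme4 (48.4 against 27.1 to 28.6), and low for Psmd5 (24.7 against 39.2 to 41.3). Ct3 was high for Psmc5 (113 CPM against 78.2 to 83.3), and Ct4 was low for Psmb4 (55.8 against 84.7 to 87.7). HF1 was low for Psmd1 (97.6 CPM against 155 to 157), HF2 was low for Psmg2 (24.3 against 30.8 to 32.1), and HF3 was high for Psmd5 (56.4 against 40.5 to 43.1). Of the 8, 3 were in Ct2.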

How the results depend on the processing

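The median over the 47 genes stayed above 0 in each comparison under each alternative run, from 0.01 to 0.21 for ECH against Ct, 0.20 to 0.51 for HF against Ct and 0.15 to 0.29 for HF against ECH. DESeq2 called 1 gene in ECH against Ct (3.29% of all genes) and 3 in HF against Ct (4.88%). At a p under 0.05 it had 2, 17 and 3 genes in the 3 comparisons, against 14.1%, 18.7% and 9.71% of all genes. The likelihood ratio test called 1 gene in ECH against Ct (2.51% of all genes) and 2 in HF against Ct (3.33%). With only the 2 groups compared in the fit, 9 genes had a p under 0.05 in HF against ECH (11.7% of all genes). With the label set as covariate, 4 genes had a p under 0.05 in ECH against Ct (7.89% of all genes). In HF against ECH 11 did (16.2%), and 1 was called (2.97%). The median of HF against Ct was then 0.51, and signs turned for Psmc1 in HF against Ct (-0.065) and for Psmb9 in ECH against Ct (0.13). Within 1 set, 0 genes had a p under 0.05 in ECH against Ct (5.03% of all genes), with 7 above (10.3%) and 2 below (8.65%) in every library and Psmb9 at 0.13. Within 1 set for HF against ECH, 24 had a p under 0.05 (21.2% of all genes), 8 were called (6.47%), and 29 lay above (16.7%) and 6 below (18%) in every library. Without Ct2 and HF1, 11 genes lay above Ct in every HF library (10.5% of all genes) and Psmb9 was at 0.13. When each library was left out in turn, Psmb9 ranged from -0.31 to 0.14. In ECH against Ct the number of genes with a p under 0.05 then ranged from 1 to 10 (8.04% to 15.1% of all genes). Above in every library were 1 to 9 (4.12% to 8.22%), and below were 0 to 1 (3.55% to 6.88%). In HF against Ct 4 to 21 genes had a p under 0.05 (12.7% to 20% of all genes). There 0 to 2 were called (0.107% to 1.08%) and 7 to 20 lay above (4.51% to 9.23%). In HF against ECH 0 to 8 genes had a p under 0.05 (3.89% to 11.9% of all genes). There 8 to 19 lay above (3.27% to 6.19%) and 0 to 1 below (3.55% to 7.11%). The causes were not tested, and the counts by p, by non-overlap and some within-set values were chosen after seeing the data. Replicate numbers did not pair the libraries (correlations of deviations -0.08 to 0.08, 0 of 12 over 0.1). With the replicate block 0 genes were called (0.164%, 0.13% and 0% of all genes), with medians of 0.13, 0.28 and 0.19. There 1, 12 and 1 genes had a p under 0.05, against 10.7%, 13.8% and 7.36% of all genes.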

Other observations

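The immunoproteasome and PA28 genes shared the difference between the ECH libraries: Psmb8 was at 243 and 308 CPM in ECH1 and ECH2 and at 185 and 158 in ECH3 and ECH4, Psmb10 at 95.2 and 116 against 71.4 and 62.6, and Psme2 at 119 and 158 against 85.3 and 64.3. These values were chosen after they were seen and were not tested.

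Transcript length went along with the deviation of some libraries and not of others. In Ct2, the 24 shorter of the 47 genes had a median log2 deviation of 0.37 from the other Ct libraries and the 23 longer ones of 0.07, with a Spearman rho between length and deviation of -0.31 over the 47 genes and -0.16 over 14457 genes. Over the 47 genes the rho was 0.45 in HF2, 0.41 in Ct4 and 0.40 in ECH3, against 0.035 in Ct3 and -0.063 in HF1, and it lay between -0.27 and 0.14 in the other 6 libraries. Over 14457 genes it was -0.16 in HF1, -0.19 in ECH1 and 0.23 in Ct4. Apart from these and Ct2, that rho lay between -0.031 and 0.14. These are correlations across genes of 1 library, which are not independent replicates, and their part in the comparisons was not tested.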
